A study of Homo sapiens with 30 samples.

Results

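Pyruvate dehydrogenase and the enzymes that switch it on and off were followed through 10 genes: the kinase genes PDK1, PDK2, PDK3 and PDK4, the phosphatase gene PDP1, and PDHA1, PDHB, DLAT, DLD and PDHX, which encode the complex itself. They were chosen by symbol. Of the 12690 genes with a probe set that carried a single symbol, 9 were members; DLD had none and is not analysed here. Each gene was read by its brightest probe set over all 30 arrays, and 5 members were bright enough to be tested: PDK1, PDK2, PDP1, PDHA1 and PDHB.

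The pyruvate dehydrogenase complex sits in the mitochondrial matrix and turns pyruvate into acetyl-CoA, which commits the carbon of glucose to the citric acid cycle. The kinases phosphorylate the alpha subunit, encoded by PDHA1, and so stop the complex, and the phosphatase, whose catalytic subunit PDP1 encodes, removes that phosphate. PDK1 is a known target of HIF, the transcription factor that accumulates when oxygen is low, and VHL is the ubiquitin ligase component that marks HIF for destruction in oxygen.

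RNA came from 3 human carcinoma lines in monolayer, on a custom Affymetrix array, with hypoxia given as oxygen below 0.01% in an anoxic incubator. Of RCC4, which derives from a renal carcinoma, there were 20 arrays. They cover the VHL-null cells and cells given wild-type VHL again, called VHL-restored here, each at 0, 1, 2, 4, 6 and 18 h and after 18 h with 1 h or 4 h of reoxygenation. H1299, from a non-small cell lung cancer, gave 4 arrays, of cells with p53 reintroduced and of p53-null cells, each at 24 h and 0 h. HCT116, from a colon carcinoma, gave 6 arrays, of p53 wild-type and p53-null cells at 0, 12 and 24 h. RCC4 at 0 h and 18 h had 2 independent replicates per genotype, and every other group was 1 array. The labels name no separate clones, so a difference between genotypes cannot be told apart from other differences between the cells that carry them. In bulk RNA, fewer cells with a transcript and less of it per cell cannot be told apart.

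Values are linear intensities in whole numbers, with some entries null, whose meaning is not given in the sources used here. They were taken as log2(intensity + 16) with null as 0, and each array was centred on its median gene, so a level is given relative to that median and a fold on this scale understates the change of a dim gene. Tests are limma's, two-sided, over the 7614 brightest genes, and a gene was called at a Benjamini-Hochberg adjusted p (padj) below 0.05. There were 2 array sets: 5 of the control entries held no value on 18 arrays, called set 1, and had values on the other 12, called set 2. Listed intensities ran higher in set 2, with array medians of 201 to 222 against 145 to 174 in set 1. In RCC4 at 0 h and 18 h, replicate 1 is set 1 and replicate 2 is set 2. The RCC4 arrays at 2 h and 6 h are set 1, those at 1 h, 4 h and reoxygenation are set 2, and all H1299 and HCT116 arrays are set 1. Tests of RCC4 at 0 h and 18 h are given as designed, without the replicate number, and with it as a block. Of 6 renal markers 2 were on the array, with 1 to 2 above the array median on RCC4 arrays and 0 to 1 on those of H1299 and HCT116. The renal marker PAX8 lay above the array median on every RCC4 array, but so did the lung marker SFTPC in all 3 lines. Of 7 colon markers on the array CDX2 and LGALS4 lay above it on every array of H1299 and HCT116, so the colon and lung lists did not tell these lines apart. Of the fibroblast markers, COL1A1 lay above it on every array of all 3 lines, and COL1A2 and DCN did so only in HCT116.

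Some libraries went against their labels. Of 8 hypoxia-responsive genes picked after values were seen (ADM, NDRG1, ENO2, PGK1, LDHA, P4HA1, BNIP3 and PFKFB4), 0 were higher at 24 h than at 0 h between the H1299 libraries labelled p53 reintroduced, with a median log2 difference of -0.97. Between the H1299 libraries labelled p53 null 8 were higher, with a median of 1.10, as were 8 in each HCT116 comparison, with medians of 1.61 to 1.93. In RCC4 the library labelled VHL-restored 1 h had 8 of the 8 above 0 h of its array set, by a median of 1.60, and stood at a median of 0.08 from 18 h of its set. The library at 2 h had 7 of the 8 higher, by a median of 0.38. Those at 4 h and 6 h had 8 of the 8 higher, by medians of 1.62 and 1.16. The 1 h and 4 h arrays are set 2 and the 2 h and 6 h arrays set 1, so set and time cannot be told apart here. Whether the libraries ran for their labelled times was not tested. Results that rest on the H1299 libraries labelled p53 reintroduced, or on the 1 h library, are given with and without them.

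The promoters of 3 members are shown because their transcripts carry the results: PDK1, which followed hypoxia and VHL, and PDHA1 and PDHB, whose brightest probe sets moved together. Each window runs from 250 bases before to 50 after a RefSeq start on GRCh38.p14, 5′ to 3′ on the gene's strand, with capitals on every match to ACGTG or GCGTG, the core letters of a hypoxia response element, on either strand. PDK1 is chr2:172555840-172556139 (+), PDHA1 is chrX:19343677-19343976 (+) and PDHB is chr3:58433783-58434082 (-).
PDK1: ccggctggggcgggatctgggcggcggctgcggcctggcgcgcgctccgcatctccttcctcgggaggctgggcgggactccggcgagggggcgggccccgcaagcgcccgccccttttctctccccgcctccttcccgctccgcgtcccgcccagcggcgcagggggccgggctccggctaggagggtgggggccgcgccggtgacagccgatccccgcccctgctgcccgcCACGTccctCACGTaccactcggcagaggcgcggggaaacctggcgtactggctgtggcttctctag
PDHA1: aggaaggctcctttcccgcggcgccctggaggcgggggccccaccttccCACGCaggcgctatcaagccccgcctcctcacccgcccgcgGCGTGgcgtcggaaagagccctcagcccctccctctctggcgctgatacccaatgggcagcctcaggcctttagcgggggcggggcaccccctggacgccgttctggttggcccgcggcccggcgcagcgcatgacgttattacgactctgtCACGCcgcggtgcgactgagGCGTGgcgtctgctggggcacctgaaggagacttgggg
PDHB: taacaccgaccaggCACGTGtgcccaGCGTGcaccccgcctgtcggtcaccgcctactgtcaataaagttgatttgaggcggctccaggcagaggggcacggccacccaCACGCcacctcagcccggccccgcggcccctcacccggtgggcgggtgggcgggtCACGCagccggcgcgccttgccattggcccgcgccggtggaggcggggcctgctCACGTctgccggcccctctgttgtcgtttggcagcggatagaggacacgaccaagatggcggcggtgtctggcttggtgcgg

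The PDK1 window held 2 matches, both ACGTG on the opposite strand, at bases 234 and 243 of the window. A window around another PDK1 start, chr2:172555123-172555422, held none. The PDHA1 window held 4 matches, all GCGTG, and the PDHB window 6, with 3 of each motif and those at bases 15 and 16 overlapping. Of all 35116 windows in the table, 48.4% held at least 1 match to either motif, 8.82% held 2 or more ACGTG, 4.4% held 4 or more of either and 0.923% held 6 or more. The 9 members with a window had 14 windows among them, and 8 of the 14 held a match; PDK4 had none. These are matches of letters, and binding was not measured.

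PDK1 (probe set EOS07904, gene at chr2:172555373-172724312) had the largest 18 h difference of the tested members. In VHL-null RCC4 its intensity was 323 and 641 at 18 h, against 317 and 558 at 0 h, in replicates 1 and 2. In VHL-restored RCC4 it was 381 and 718 at 18 h, against 115 and 269 at 0 h. After centring, both VHL-restored arrays at 0 h lay below the other 6 arrays of these groups, with no overlap. The share of all genes that separate this way was not counted.

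The centred level of PDK1 in VHL-null cells averaged 1.24 ± 0.25 at 18 h and 1.09 ± 0.03 at 0 h (SD, n = 2 each). The log2 difference of 0.15 was not called (limma padj = 1.00 as designed, 0.874 with the block), and the background was 0% as designed and 0.486% with the block. limma called 0 of the 5 members there, with 0 at an unadjusted p under 0.05.

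In VHL-restored cells PDK1 averaged 1.50 ± 0.27 at 18 h and -0.03 ± 0.42 at 0 h (SD, n = 2 each), a log2 difference of 1.53 or 2.89-fold. Within replicates the difference was 1.64 and 1.42. limma gave it an SE of 0.249 and padj = 0.148 as designed, and an SE of 0.117 and padj = 3.49e-07 with the replicate block. The block called 6.58% of all genes tested, against 0.0394% called as designed. With the mean of both PDK1 probe sets in place of the brightest, the difference of 1.66 was called without the block (limma padj = 0.0242).

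The VHL-null minus VHL-restored difference in the hypoxic change was -1.38 on the log2 scale (SE 0.352, limma padj = 1.00 as designed). With the replicate block it was called (SE 0.166, limma padj = 0.000232), as were 0.565% of all genes, against 0% as designed, where 1 member, PDK1, had an unadjusted p under 0.05.

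Set genotype against genotype, PDK1 at 0 h was 2.18-fold higher in VHL-null than in VHL-restored cells (log2 difference 1.12, SE 0.249). Its padj by limma was 0.332 as designed and 7.9e-06 with the block, where the shares called over all genes were 0.118% and 7.51%. At 18 h the genotypes were closer: the VHL-null minus VHL-restored difference was -0.26 (limma padj = 0.243 with the block). The backgrounds of that comparison were 0.0263% as designed and 7.59% with the block.

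**Figure D1:**
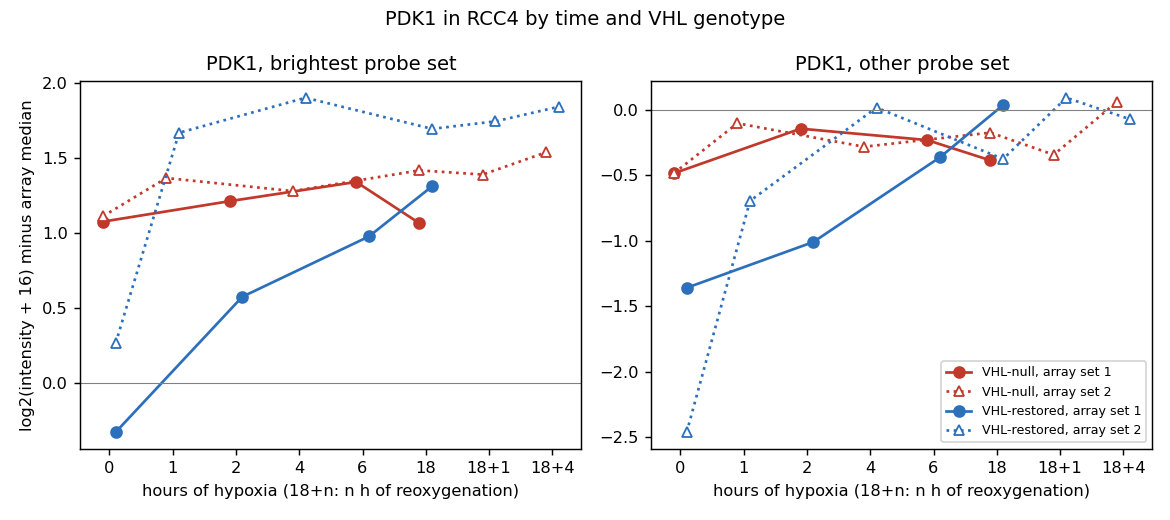
PDK1 in RCC4 by hours of hypoxia and reoxygenation (x axis, not to scale) on 2 probe sets, as log2(intensity + 16) minus the array median (y axis). Each point is 1 array, coloured by VHL genotype with shape and line by array set. On the brightest probe set VHL-null cells are at a mean of 1.24 at 18 h and 1.09 at 0 h, and VHL-restored cells at 1.50 and -0.03.

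The intermediate times were single arrays, and array set and time cannot be told apart among them. VHL-null cells read 546 at 1 h, 350 at 2 h, 530 at 4 h and 394 at 6 h, with log2 differences of 0.25, 0.14, 0.17 and 0.26 from 0 h of the same set. In VHL-restored cells PDK1 read 673 in the library labelled 1 h, 224 at 2 h, 792 at 4 h and 298 at 6 h. Against the 0 h array of the same set, these VHL-restored arrays differed by 1.40, 0.90, 1.63 and 1.30. All 4 were above 0 h, and the set 1 arrays at 2 h and 6 h stood nearer to it than the set 2 arrays at 1 h and 4 h.

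For a test, 1 h and 2 h were joined as early hypoxia, and 4 h and 6 h as middle hypoxia, in a fit of all 20 RCC4 arrays with the array set as a term. In VHL-null cells the PDK1 differences were 0.20 early and 0.22 in the middle times, and limma called 0 members in each, with 0 at an unadjusted p under 0.05 and a background of 0%. In VHL-restored cells PDK1 rose in middle hypoxia, by 1.47 or 2.76-fold (SE 0.222, limma padj = 0.0165), the only member among 0.131% of genes called. In early hypoxia its difference of 1.15 was not called (SE 0.222, limma padj = 0.0973), where 0 members and 0.0394% of genes were, with 1 member at an unadjusted p under 0.05.

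The middle call rested on few arrays: the difference was 1.38 without replicate 1 at 0 h, 1.56 without replicate 2 at 0 h and 1.19 without the 4 h array, none of them called (limma padj 0.114 to 0.433). The call also ended without the array set term (1.47, limma padj = 0.654) and with no filter on dim genes (padj = 0.0991). Leaving out the 2 h array raised the early difference to 1.52 (limma padj = 0.0164), and leaving out the library labelled 1 h gave 0.77 (padj = 1.00).

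Within 4 h of reoxygenation PDK1 on its brightest probe set stayed within 0.15 on the log2 scale of the 18 h array of the same set. In VHL-null cells it read 602 at 1 h and 618 at 4 h of reoxygenation, against 641 at 18 h. In VHL-restored cells it read 697 and 657, against 718. By limma the difference from 18 h was 0.00 in VHL-null cells (SE 0.229, padj = 0.999) and 0.07 in VHL-restored cells (SE 0.229, padj = 0.875). The backgrounds were 0% and 0.0525%.

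The other PDK1 probe set was dimmer and also had VHL-restored cells at 0 h lowest. In VHL-null cells it read 108 and 202 at 18 h, against 97 and 174 at 0 h. In VHL-restored cells it read 148 and 159 at 18 h, against 48 and 27 at 0 h. It moved more after reoxygenation than the brightest probe set. Its centred level in VHL-restored cells was 0.092 at 1 h and -0.071 at 4 h of reoxygenation, against -0.375 at 18 h of set 2. In VHL-null cells it was -0.343 and 0.061, against -0.174. Over 30 arrays its Pearson correlation with the brightest probe set was 0.888, or 0.836 with each line's mean removed, as a description of arrays that share RNA and scaling.

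PDK2 (chr17:50094737-50112152), a kinase expressed in most tissues, varied less. It read 169 to 260 on the 20 RCC4 arrays, 150 to 166 in H1299 and 142 to 167 in HCT116. In VHL-null cells it read 183 and 244 at 18 h, against 189 and 259 at 0 h, and in VHL-restored cells 195 and 260 at 18 h, against 183 and 218 at 0 h. The groups overlapped, and the 18 h differences were -0.02 in VHL-null and 0.21 in VHL-restored cells (limma padj = 0.999 and 0.294 with the block).

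PDK3 (chrX:24465286-24550466) was listed on 18 of 30 arrays and never above 40. PDK4 (chr7:95583499-95596516), which starvation induces in muscle and liver, was listed on 23 of 30 arrays and never above 41, and its second probe set on 0 arrays. Both fell below the brightness needed for a test, so nothing can be said here of a change in either. The same holds for DLAT (chr11:112025408-112064404), the acetyltransferase, listed on 1 array at 0, and for PDHX (chr11:34915920-34996128), the component that anchors DLD, listed on 2 arrays at up to 6.

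**Figure D2:**
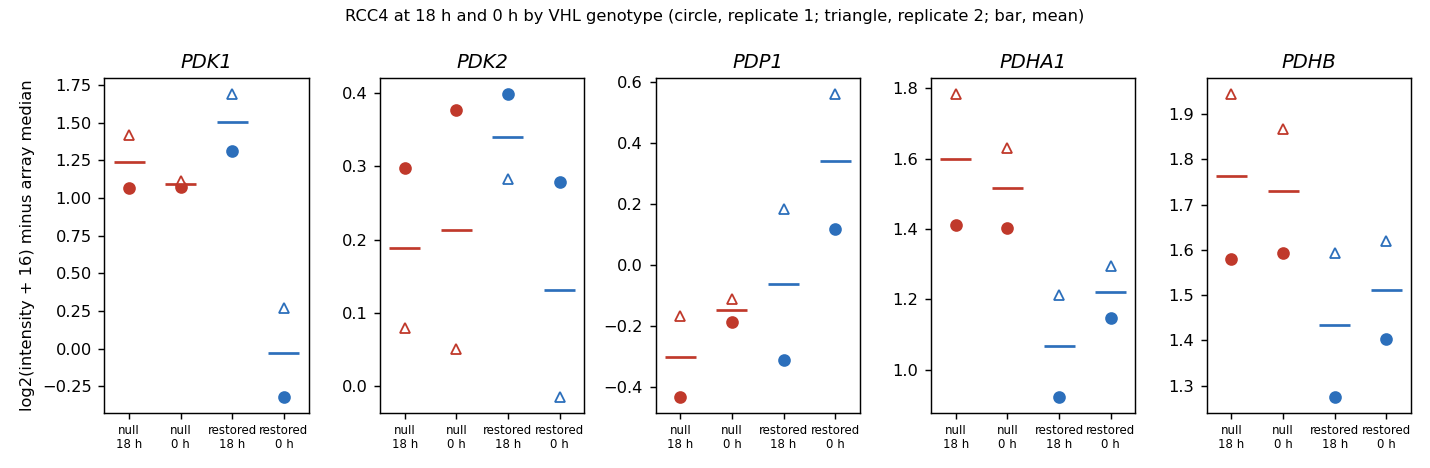
The 5 tested members in RCC4 at 18 h and 0 h, as log2(intensity + 16) minus the array median, with VHL-null cells on the left of each panel. Circles are replicate 1, triangles replicate 2 and bars the mean of 2, and each panel has its own y axis. PDK1 has a low group, VHL-restored at 0 h, at a mean of -0.03.

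PDP1 (chr8:93916923-93926068) was the other member called at 18 h in VHL-restored cells, in the opposite direction to PDK1 and with the block only. In VHL-null cells it read 104 and 203 at 18 h, against 123 and 230 at 0 h, a difference of -0.15 (limma padj = 0.836 with the block). In VHL-restored cells it read 113 and 242 at 18 h, against 162 and 333 at 0 h. The VHL-restored difference of -0.40 was not called as designed (SE 0.235, limma padj = 1.00) and was called with the replicate block (SE 0.111, limma padj = 0.0370), with -0.43 and -0.38 in the replicates. Of the 5 members limma thus called 0 as designed, with 1 at an unadjusted p under 0.05, and 2 with the block, PDK1 higher and PDP1 lower. Over all genes the calls were 0.0394% as designed and 6.58% with the block. The second PDP1 probe set, not tested alone, was lower at 18 h in both genotypes. In VHL-null cells it read 20 and 69 at 18 h, against 40 and 216 at 0 h. In VHL-restored cells it read 26 and 130 at 18 h, against 63 and 278 at 0 h. So a fall confined to VHL-restored cells was not seen on that probe set.

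At 0 h PDP1 was lower in VHL-null than in VHL-restored cells by -0.49 (limma padj = 1.00 as designed, SE 0.111 and padj = 0.0103 with the block). So at 0 h the block called 2 members, PDK1 higher and PDP1 lower in VHL-null cells, where 7.51% of all genes were called. As designed limma called 0 members and 0.118% of genes, with 1 member at an unadjusted p under 0.05. The VHL by hypoxia interaction of PDP1, 0.25, was not called (limma padj = 1.00 with the block).

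The lowest PDP1 value came from 1 array. After 18 h of hypoxia and 4 h of reoxygenation, PDP1 read 87 in VHL-null and 18 in VHL-restored cells, and at 1 h of reoxygenation 191 and 222. The second PDP1 probe set read 93 at 4 h and 107 at 1 h in VHL-null cells, and was null at 4 h and 100 at 1 h in VHL-restored cells. That VHL-restored array had the highest share of null entries of all 30, 40.4%, and the part of this in the result was not tested.

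By limma the reoxygenation difference from 18 h in VHL-restored cells was -1.28 (SE 0.574, padj = 0.379), and 0 members were called, with 1 at an unadjusted p under 0.05. It rested on that 1 array: the difference was 0.04 without it (padj = 0.995) and -2.59 without the 1 h reoxygenation array (padj = 0.000499). Each reoxygenation time was 1 array.

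**Figure D3:**
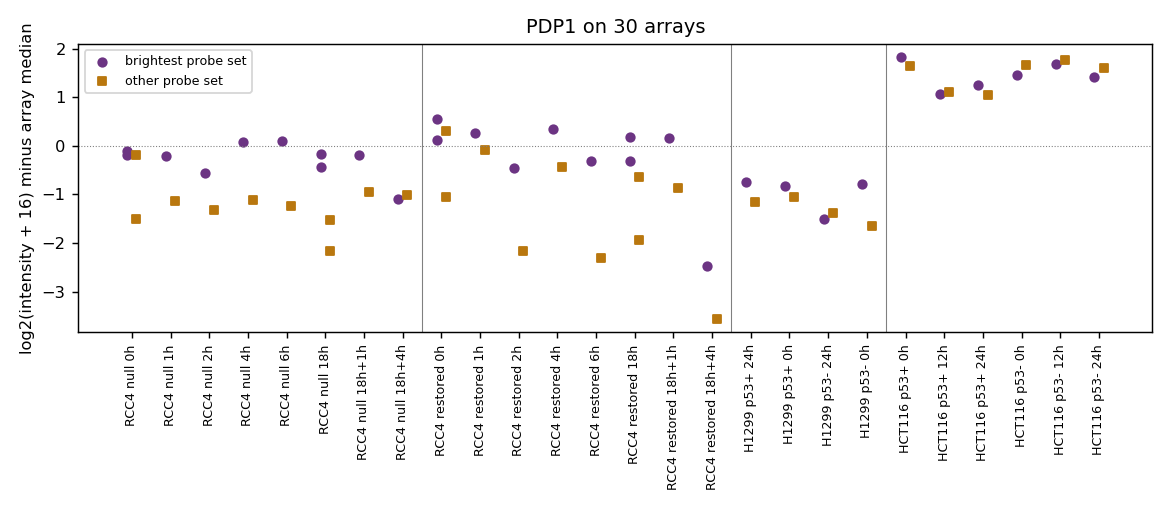
PDP1 on all 30 arrays by line, genotype and time (x axis), as log2(intensity + 16) minus the array median (y axis), with circles for the brightest probe set and squares for the other. HCT116 sits highest, with brightest probe set levels of 1.07 to 1.83, and VHL-restored RCC4 at 4 h of reoxygenation sits lowest, at -2.47.

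PDHA1 (chrX:19343927-19361718) and PDHB (chr3:58427630-58433832) encode the alpha and beta subunits of the pyruvate dehydrogenase component, and neither was called for hypoxia. PDHA1 read 415 and 832 at 18 h in VHL-null RCC4, against 402 and 805 at 0 h, and 287 and 510 at 18 h in VHL-restored RCC4, against 347 and 564 at 0 h. The log2 differences were 0.08 in VHL-null and -0.15 in VHL-restored cells (limma padj = 0.980 and 0.532 with the block). PDHB read 468 and 931 at 18 h in VHL-null cells, against 461 and 952 at 0 h, and 371 and 669 at 18 h in VHL-restored cells, against 418 and 711 at 0 h. It differed by 0.03 and -0.08 (limma padj = 0.999 and 0.795 with the block).

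Between genotypes both subunits passed the test at 18 h, with the block only. PDHA1 at 18 h was 1.45-fold higher in VHL-null than in VHL-restored cells (log2 difference 0.53, SE 0.202, limma padj = 1.00 as designed). With the block it was called (SE 0.0986, limma padj = 0.00245). PDHB at 18 h differed between the genotypes by 0.33 (limma padj = 1.00 as designed, 0.0474 with the block). The 2 calls with the block, where 7.59% of all genes were called, stood against 0 as designed, where 0.0263% were. As designed 1 member had an unadjusted p under 0.05. At 0 h neither was called: with the block PDHA1 was at 0.30 (limma padj = 0.0892) and PDHB at 0.22 (padj = 0.243).

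The direction was the same in each pair of arrays. Each VHL-null array has a VHL-restored partner of the same time and array set, which makes 10 pairs, and this comparison was added after the values were seen. At 1, 2, 4 and 6 h PDHA1 read 747, 407, 775 and 439 in VHL-null cells, against 461, 321, 445 and 332 in VHL-restored cells. PDHB read 747, 487, 778 and 498 in VHL-null cells, against 614, 435, 626 and 446 in VHL-restored cells. PDHA1 was higher in the VHL-null array of all 10 pairs, by 0.26 to 0.72 with a median of 0.45. PDHB was higher in all 10, by 0.13 to 0.35 with a median of 0.26. Over all genes tested, 5.86% were higher in VHL-null cells in all 10 pairs and 8.02% were lower in all 10.

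With the pair as a block limma put PDHA1 at 0.47 or 1.38-fold (SE 0.0479, padj = 4.65e-06) and PDHB at 0.26 or 1.20-fold (SE 0.0347, padj = 5.02e-05). These were 2 of 5 tested members, and 33.1% of all genes passed the same test, so a call in this comparison was common. The calls split into 940 higher and 1578 lower in VHL-null cells as computed here, 1232 and 1392 with quantile normalization and 1442 and 859 without centring, and PDHA1 and PDHB were called as higher under each. Leaving out 1 pair at a time, the library labelled 1 h included, gave 0.44 to 0.49 for PDHA1 and 0.25 to 0.27 for PDHB. PDK1 was at 0.11, PDK2 at -0.03 and PDP1 at -0.09, none of them called, and PDK1 was higher in 4 of 10 pairs. PDP1 was lower in VHL-null cells in 8 of 10 pairs, with a median of -0.29, and without the pair at 4 h of reoxygenation it was at -0.25 and called (limma padj = 0.0362). Times of 1 line serve as replicates here, so the p-values measure repeatability over times.

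The second PDHB probe set did not carry the PDHB result. It read 76 to 199 over 30 arrays, its correlation with the brightest was -0.033, and its pair differences ran from -0.17 to 0.26. With the mean of both probe sets PDHB was at 0.10 over the 10 pairs and was not called (limma padj = 0.11). Which probe set reads the PDHB transcript better was not tested.

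**Figure D4:**
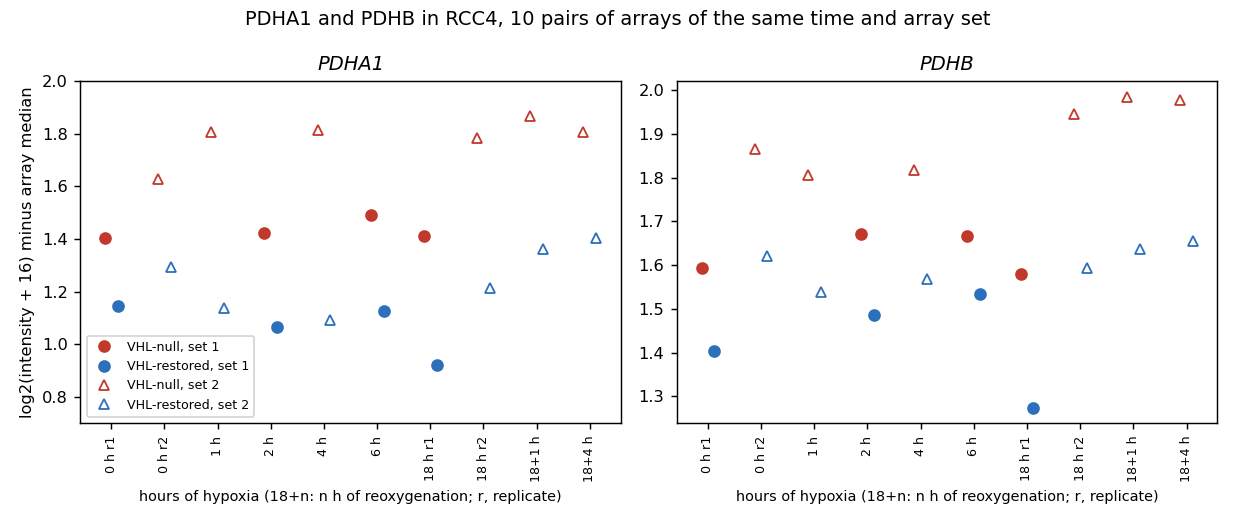
PDHA1 and PDHB in RCC4 for 10 pairs of arrays of the same time and array set (x axis), as log2(intensity + 16) minus the array median (y axis, not from 0). Red marks VHL-null and blue VHL-restored, with filled circles for set 1 and open triangles for set 2. In every pair the VHL-null array is higher, by 0.26 to 0.72 for PDHA1 and 0.13 to 0.35 for PDHB.

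PDHA1 and PDHB also ran together over all 30 arrays on their brightest probe sets, with a Pearson correlation of 0.893 after each line's mean was removed. The second PDHB probe set correlated with the brightest at -0.16 by this measure. Other correlations here also use the brightest probe set of each gene. Neither followed PDK1 (0.075 and 0.105), and PDK1 with PDP1 stood at -0.282. The genes most like PDK1 by the same measure, over 7614, were HK1 (0.957), BNIP3 (0.948), BNIP3L (0.944), ENO2 (0.936) and TMEM45A (0.924). The gene most like PDHA1 was RBBP7 (0.945), that most like PDHB was CMSS1 (0.919), that most like PDP1 was FBXO5 (0.892) and that most like PDK2 was SHISA7 (0.887). These arrays share treatment times and array sets, and the correlations are descriptions.

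In HCT116 PDK1 was higher in hypoxia in both p53 genotypes. It read 42, 189 and 203 at 0, 12 and 24 h in p53 wild-type cells, and 47, 191 and 154 in p53-null cells. Both 0 h arrays lay below all 4 hypoxic arrays, and the share of all genes that did so was not counted. At 12 h, with the genotypes as replicates, it was 3.46-fold higher than at 0 h (log2 difference 1.79, SE 0.140, limma padj = 0.0174), the only member called where 0.735% of genes were. Leaving out 1 array at a time left the difference at 1.63 to 1.95 and ended the call without the p53-null 0 h array (limma padj = 0.0561) and without either 12 h array (padj = 0.119 each). It also ended with the mean of probe sets (1.52, limma padj = 0.0545) and with no filter on dim genes (padj = 0.153).

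In H1299 the order of PDK1 by labelled time differed between the p53 labels. The library labelled p53 reintroduced, 24 h, read 66 for PDK1 and the library labelled p53 reintroduced, 0 h, read 267. The library labelled p53 null, 24 h, read 192 and the library labelled p53 null, 0 h, read 75. The second PDK1 probe set gave 14 and 62 for the p53 reintroduced labels, and 71 and 25 for the p53 null labels.

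ENO2, an enolase of glycolysis, read 85 and 269 in the libraries labelled p53 reintroduced, 24 h and 0 h, and 243 and 95 in those labelled p53 null. CDKN1A, a p53 target, read 329 and 138 in those labelled p53 reintroduced and 259 and 105 in those labelled p53 null.

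**Figure D5:**
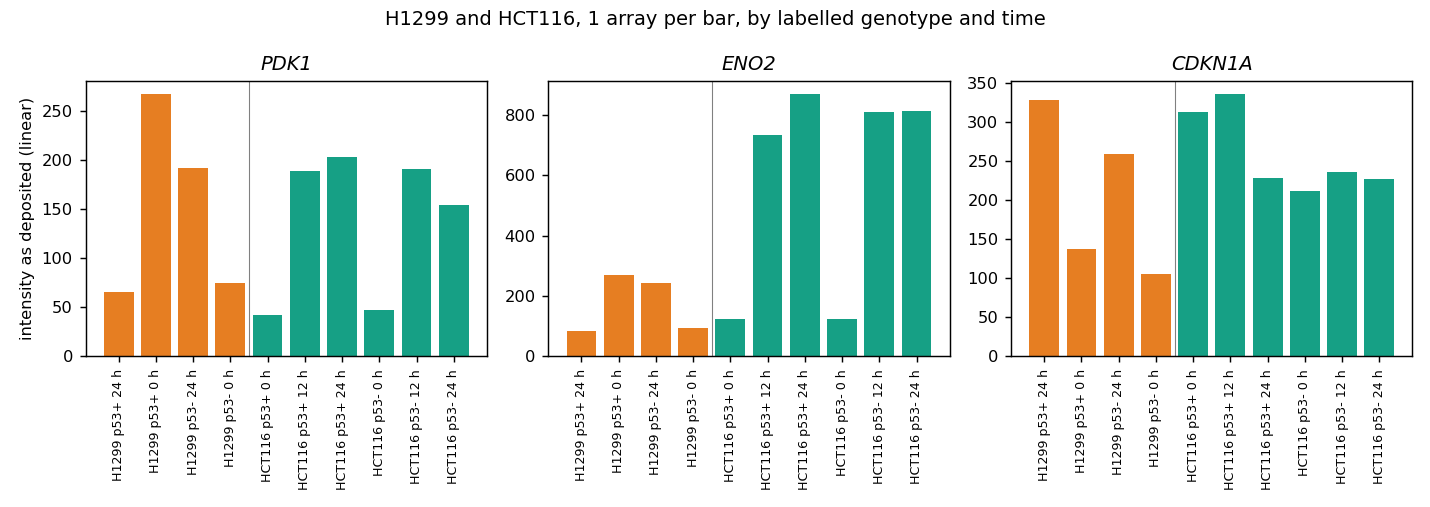
Deposited intensities (y axis, linear, from 0) of PDK1, ENO2 and CDKN1A on the 4 H1299 arrays (orange) and 6 HCT116 arrays (green) by labelled genotype and time, 1 array per bar. In the H1299 libraries labelled p53 reintroduced (p53+), PDK1 is 66 at 24 h and 267 at 0 h, the opposite order to the other 3 backgrounds.

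Over both lines, with line and genotype as a block, PDK1 at 24 h differed from 0 h by 0.70 (SE 0.638, limma padj = 0.706). limma called 0 members and 0% of genes, with 0 members at an unadjusted p under 0.05. Without H1299, an alternative chosen after the values were seen, PDK1 rose by 1.68 or 3.21-fold in HCT116 (SE 0.152, limma padj = 0.0317), the only member called where 1.58% of genes were. With only the H1299 libraries labelled p53 reintroduced left out, PDK1 was at 1.53 and not called (limma padj = 0.0849). In that fit limma called 0 members, with 2 at an unadjusted p under 0.05. Of all 7614 genes it called 7, with 1204 at an unadjusted p under 0.05. PDHA1 stood at -0.16 with H1299 and -0.28 without it, PDHB at -0.10 and -0.22, PDP1 at -0.31 and -0.30, and PDK2 at 0.11 and 0.15, none of them called.

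p53 genotype made no difference that passed the test. With line and labelled time as a block, PDK1 was at 0.10 for p53 wild type over p53 null (limma padj = 0.964), and 0.08 without H1299 (padj = 0.908). limma called 0 members, with 0 at an unadjusted p under 0.05, where 0% of genes were called, or 0.0263% without H1299. The p53 by hypoxia interaction of PDK1 was -1.24 with an SE of 1.30 (limma padj = 0.895), with 0 members and 0% of genes called and 0 members at an unadjusted p under 0.05.

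Over all 6 combinations of line and genotype, late hypoxia (18 h or 24 h) against 0 h gave PDK1 a difference of 0.74 (SE 0.468, limma padj = 0.466), and 1.26 without H1299 (padj = 0.198). limma called 0 members and 0% of genes in both. With H1299, 2 members had an unadjusted p under 0.05, PDP1 at -0.30 and PDK2 at 0.11 (padj = 0.401 each), and without it 2 had, PDK1 and PDP1, the second at -0.29 (padj = 0.271).

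Between the lines PDP1 had the widest range of the tested members. At 0 h it read between 123 and 333 in RCC4, 66 and 69 in the H1299 libraries labelled p53 reintroduced and p53 null, and 498 and 375 in HCT116, p53 wild type and null. Centred levels were 0.10 ± 0.34 in RCC4, -0.81 ± 0.03 in H1299 and 1.64 ± 0.26 in HCT116 (SD, n = 2 genotypes each). HCT116 was highest and H1299 lowest. RCC4 over HCT116 was at -1.54 (limma padj = 0.00279) and RCC4 over H1299 at 0.90 (padj = 0.0145), a call that ended without the H1299 library labelled p53 reintroduced, 0 h (0.88, padj = 0.0560). H1299 over HCT116 was at -2.45 (SE 0.199, limma padj = 0.00667). The second PDP1 probe set read 31 to 54 in H1299 and 276 to 465 in HCT116 over all times.

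Many genes differ between lines, with 55.4% called for RCC4 over H1299, 60.3% for RCC4 over HCT116 and 6.2% for H1299 over HCT116. The median gene was at -0.20, -0.21 and -0.02 in these comparisons, and at 0.26, 0.27 and 0.00 without centring. The split of calls moved with the scaling: RCC4 over H1299 had 1177 higher and 3040 lower as designed, 1430 and 1960 with quantile normalization, and 3215 and 543 without centring. RCC4 over HCT116 had 1325 higher and 3264 lower as designed, 1706 and 2159 with quantile normalization, and 3490 and 656 without centring. The 3 PDP1 differences kept their sign and call under each scaling. Members called were 2 of 5, 1 of 5 and 1 of 5. The other call was PDHA1, lower in RCC4 than in H1299 by -0.50 (limma padj = 0.0150), though at -0.27 with quantile normalization (padj = 0.142) and -0.05 without centring (padj = 0.785).

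PDHA1 averaged 1.37 ± 0.21 in RCC4, 1.87 ± 0.04 in H1299 and 1.38 ± 0.01 in HCT116 at 0 h (SD, n = 2 genotypes each), and H1299 over HCT116 was at 0.49 (limma padj = 0.0750). PDHB averaged 1.62 ± 0.15 in RCC4, 1.84 ± 0.07 in H1299 and 1.35 ± 0.17 in HCT116, and no pair of lines was called as designed. PDK1 was at 0.53 ± 0.79 in RCC4, 0.13 ± 1.16 in H1299 and -1.25 ± 0.10 in HCT116, and no pair of lines was called (limma padj 0.0518 to 0.607). Without centring limma called all 5 tested members for RCC4 over HCT116, 4 higher and 1 lower, among 4146 of 7614 genes. There PDK1 was at 2.27 and PDHB at 0.75 (limma padj = 0.0249 and 0.00589), and PDHA1 and PDK2 were at 0.47 each.

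Of the H1299 libraries at 0 h, the one labelled p53 reintroduced is in doubt. Leaving it out, an alternative chosen after the values were seen, leaves 1 H1299 array assumed to vary like the others. For RCC4 over H1299 PDHA1 was then at -0.47 and PDP1 at 0.88, and neither kept its call. For RCC4 over HCT116 PDP1 was at -1.54 and PDK1 at 1.79, and for H1299 over HCT116 PDP1 was at -2.42. With that library, as designed, the calls over all genes were 55.4% for RCC4 over H1299 and 60.3% for RCC4 over HCT116. They were 6.2% for H1299 over HCT116.

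The enzymes around the complex were read as lists of genes. Of 17 genes for the transport and fate of pyruvate and lactate, 11 were on the array and 9 were tested. In HCT116 at 12 h LDHA, the lactate dehydrogenase subunit that favours lactate, was the 1 of 9 called, at 0.99 (limma padj = 0.0174), where 0.735% of all genes were. The median of the 9 was -0.07 beside 0.04 for all genes. In HCT116 at 24 h, without H1299, LDHA was at 1.02 (limma padj = 0.0348).

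In VHL-restored RCC4 at 18 h limma called 0 of the 9 as designed (median -0.03, all genes 0.05) and 1 with the block, PCK2, the mitochondrial phosphoenolpyruvate carboxykinase, at 0.58 (padj = 0.00704), where 6.58% of all genes were. At 0 h the block called 2 as higher in VHL-null cells, LDHA at 0.76 (limma padj = 0.0102) and PCK2 at 0.45 (padj = 0.0311), and 0 were called as designed. Those 2 of 9 stood beside 7.51% of all genes. Of 17 citric acid cycle genes, 13 were on the array and 9 tested, and limma called 0 of them at 18 h in either genotype, with a median of 0.05 in each, beside 0.02 for all genes in VHL-null and 0.05 in VHL-restored cells. The block called SDHC, a succinate dehydrogenase membrane subunit, as lower in VHL-null cells at 0 h, at -0.39 (padj = 0.0224).

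Over the 10 VHL pairs more were called, as among all genes. In the pyruvate and lactate list 2 of 9 were higher and 3 lower in VHL-null cells, PCK2 at 0.35 among the higher and LDHB, ACSS2 and ME2 at -0.21, -0.20 and -0.20 lower. In the citric acid cycle list IDH3A was higher, at 0.22, and 3 were lower, IDH3G, OGDH and IDH2 at -0.16, -0.16 and -0.13.

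Of 12 genes for lipoylation and the related dehydrogenase complexes, 9 were on the array and 4 tested, and limma called 0 of them for hypoxia or VHL in RCC4, with and without the block. Between lines BCKDHA, BCKDK and PPM1K, which encode a subunit, the kinase and the phosphatase of the branched-chain complex, were lower in RCC4 than in H1299 (-0.59, -0.71 and -0.46) and than in HCT116 (-0.57, -0.78 and -0.58). These kept their call with quantile normalization and lost it without centring, where PPM1K was at 0.00 for RCC4 over H1299. ME1, the cytosolic malic enzyme, was 15.1-fold higher in RCC4 than in H1299 (limma padj = 9.53e-05) and 2.12-fold higher than in HCT116 (padj = 0.00119). H1299 over HCT116 was 0.14-fold for ME1 (log2 -2.83, limma padj = 0.000942). MPC2, a subunit of the mitochondrial pyruvate carrier, was 2.56-fold higher in RCC4 than in H1299 (limma padj = 0.000639) and 3.84-fold higher than in HCT116 (padj = 0.000384). ME3 of the same list was called lower in RCC4 (-0.7 and -0.61). In the citric acid cycle list DLST (-1.0 and -0.98) and IDH3B (-0.47 and -0.37) were called lower and IDH2 higher (0.97 and 0.63). That list had 1 of 9 higher and 3 lower over H1299, and 2 and 3 over HCT116. ME3, DLST, IDH3B and IDH2 are not given here under the other scalings. The pyruvate and lactate list had 3 of 9 higher and 1 lower over H1299, and 3 and 2 over HCT116. All genes had 55.4% and 60.3% called there. Without the H1299 library labelled p53 reintroduced, 0 h, the RCC4 differences of BCKDHA, BCKDK, PPM1K, ME1 and MPC2 kept their sign. So did ME1 in H1299 over HCT116.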

How the data were processed

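The authors deposited 1 table of linear intensity values in whole numbers for 35356 probe sets on 30 arrays. How they scaled it, and what a null entry means, is not given in the sources used here. Null entries were 18.4% to 40.4% of an array. For arrays, the number of arrays limits the precision.

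A single symbol stood on 16905 of the 17478 probe sets with annotation, giving 12690 genes by the brightest probe set. The upper 60% by mean, 7614 genes, were tested with limma 3.58.1 in R 4.3.3. Samples were grouped by their titles. Fits had a mean per group for the 8 RCC4 arrays at 0 h and 18 h, stage groups with an array set term for the 20 RCC4 arrays, line and genotype as a block at 24 h, and, for p53, blocks of line by time. Genotypes served as replicates between lines and in HCT116. Beyond RCC4 at 0 h and 18 h the labels do not call samples independent, so the spread behind a p-value may be technical.

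Replicate differences of the 4 RCC4 groups correlated at 0.794 to 0.916 over 6 pairs of groups, across genes, so the replicate number was used as a block beside the main fits. At 0 h and 18 h it equals the array set.

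Named genes were all members, up to 4 called genes per list and comparison, and the genes most like each tested member. The members and lists were chosen with earlier results of these data known. Alternatives were a pseudocount of 32, quantile normalization, no centring, no filter, the mean of probe sets, the block, no array set term, and leaving out arrays or backgrounds. Methods were tested on simulated data with 200 changed genes. Promoter windows and loci are from RefSeq GRCh38.p14.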

Additional observations from a re-analysis of the deposited data

Results flagged for a closer look

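The change of PDK1 from 0 h to 18 h differed between VHL-null and VHL-restored RCC4 by -1.38 on the log2 scale, and limma called this difference with the replicate block (adjusted p = 0.000232). In H1299 the 24 h minus 0 h difference of PDK1 was -1.79 between the libraries labelled p53 reintroduced and 1.21 between those labelled p53 null. That difference was not called by the p53 by hypoxia interaction over H1299 and HCT116, and within H1299 it was not tested.

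PDHA1 went opposite ways at 18 h in the 2 VHL genotypes, by 0.01 and 0.16 in the VHL-null replicates and by -0.22 and -0.08 in the VHL-restored replicates, and the interaction of 0.24 was not called by limma (adjusted p = 1.00 with the block). In H1299, with 1 array a group, opposite signs also stood for PDHA1 (-0.06 at the p53 reintroduced label, 0.01 at p53 null), PDHB (0.08 and -0.03) and PDP1 (0.10 and -0.72), and these differences were not tested within H1299.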

How the results depend on the processing

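Counts of members called moved with the fit. With the replicate block they were 2 for 18 h in VHL-restored RCC4, 2 for VHL at 0 h, 2 for VHL at 18 h and 1 for the interaction, each against 0 without it, and 0 for 18 h in VHL-null cells with and without it. With the mean of probe sets they were 1 (against 0) for 18 h in VHL-restored cells, 1 (against 2) over the 10 VHL pairs, 0 (against 1) for HCT116 at 12 h and 2 (against 1) for H1299 over HCT116. With no filter they were 0 (against 1) for middle hypoxia and for HCT116 at 12 h, 4 (against 2) for RCC4 over H1299 and 3 (against 1) for RCC4 over HCT116. The fits with no filter tested 9 members, with PDK3, PDK4, DLAT and PDHX added, which lie near the floor. DLAT was null or 0 on every array, so centring alone set its difference between lines. The higher counts between lines therefore do not show more members that differ. With quantile normalization RCC4 over H1299 gave 1 and RCC4 over HCT116 gave 2, and with no centring RCC4 over HCT116 gave 5. Without the H1299 library labelled p53 reintroduced, 0 h, chosen after seeing the data, they were 0 (against 2) for RCC4 over H1299, 2 (against 1) for RCC4 over HCT116 and 1 for H1299 over HCT116. Middle hypoxia gave 0 without the array set term, and 24 h gave 1 without H1299, which was chosen after seeing the data. Leaving out 1 array or pair gave 0 to 1 for early hypoxia, middle hypoxia and reoxygenation in VHL-restored cells and for HCT116 at 12 h, and 2 to 3 over the 10 pairs, where PDP1 was called at -0.25 without the pair at 4 h of reoxygenation.

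Signs turned for PDK2 in RCC4 over H1299 (0.41 with no centring, 0.10 with RCC4 replicate 1 alone) and over HCT116 (0.01 with quantile normalization, 0.47 with no centring, 0.14 with replicate 1 alone). They also turned for PDHA1 in RCC4 over HCT116 (0.02 with pseudocount 32, 0.21 with quantile normalization, 0.47 with no centring) and for PDP1 in reoxygenated VHL-restored cells (0.04 without the 4 h array), where the difference was -2.59 and called without the 1 h array. The cause was not tested. In all, 190 of 217 member counts kept their value to within 1.5 times, where a count of 0 that stayed 0 was taken as kept. Most comparisons called 0 members as designed, so this share says little of how stable the calls are. Of 75 differences that were never called, 38 changed sign under at least 1 alternative.

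Counts over all genes moved too: 3 against 501 with the block for 18 h in VHL-restored cells, 0 against 37 in VHL-null cells, 9 against 572 and 2 against 578 for VHL, and 0 against 43 for the interaction. RCC4 replicate 1 alone called 2399 genes against 4217 over H1299 and 2731 against 4589 over HCT116. H1299 over HCT116 called 280 genes against 472 without the H1299 library named above. The p53 by hypoxia interaction could not be fitted without H1299, since no residual degrees of freedom remain. Only 5 of 10 members were bright enough to test, and most groups are single arrays.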
